A study of Homo sapiens with 18 samples.

Results

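Farage and SUDHL6 are human diffuse large B-cell lymphoma lines that the study used as models of the germinal centre B-cell-like (GCB) subtype, and their baseline transcriptomes were compared here. The comparison used the 3 Farage libraries and the 3 SUDHL6 libraries treated with DMSO, the solvent control, out of 18 libraries in all. It took in every named locus with at least 1 FPKM (fragments per kilobase of transcript, scaled to the mapped fragments of the library) in at least 3 of the 6 libraries. Of 26004 named loci, 11061 met that rule.

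The study treated Farage, SUDHL6 and SUDHL4, all established lines, with DMSO or with a BCL6 inhibitor, in 3 libraries per line and treatment, and sequenced mRNA with an Illumina library kit. The cells grew in RPMI1640 medium with 10% fetal bovine serum. Sample titles give the exposure as 12 h and the source names of the same samples give it as 24 h, and both lines carry the same labels. The labels do not say whether the replicates of a line were separate cultures, so p-values measure the spread between these libraries, which may be technical, and each line is 1 cell line rather than a sample of tumours.

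Farage is known as an Epstein-Barr virus-positive line, and SUDHL6 as a virus-negative line. In B cells, signals from the B-cell receptor, CD40, Toll-like receptors and, in infected cells, viral proteins converge on NF-kB, whose subunits enter the nucleus and switch on genes for survival, chemokines and their own inhibitors. Interleukins and interferons act through Janus kinases and STAT proteins, and antigen is shown to T cells on class I molecules, which nearly all nucleated cells carry, and class II molecules, which the coactivator CIITA controls in B cells. BCL6 is the repressor that holds the germinal centre state.

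Genes of the B lineage were present in both lines. Of the 12 B-cell markers listed, 9 had a locus of their own, and all 9 reached 1 FPKM in both lines, with summed levels of 940 to 960.0 FPKM in Farage and 1372 to 1464 FPKM in SUDHL6. VPREB3, a pre-B-cell receptor partner, stood at 19, 21.3 and 19.3 FPKM in Farage and 166, 199 and 231 FPKM in SUDHL6, so that every Farage library lay below every SUDHL6 library (difference -3.25 ± 0.13 (SE), limma adjusted p = 3.61e-06). EBF1, the early B-cell transcription factor, ran the other way, at 19.7 to 21 FPKM in Farage and 3.33 to 4.28 FPKM in SUDHL6 (2.18, limma adjusted p = 3.66e-06). BLK, a B-cell Src-family kinase, measured 92.4 to 94 FPKM in Farage and 40.0 to 44.8 FPKM in SUDHL6 (1.12, limma adjusted p = 1.58e-05). MS4A1, which encodes CD20, measured 436 to 470.0 FPKM in Farage and 594 to 729.6 FPKM in SUDHL6 (-0.53, limma adjusted p = 0.00391). CD37, a tetraspanin, and CD72, an inhibitory receptor, were lower in Farage by 1.1 and 2.04 (limma adjusted p = 0.000232 and 0.000163). PAX5, the lineage-commitment factor, differed by little, at 49.1 to 55.5 FPKM in Farage and 42.9 to 47.1 FPKM in SUDHL6 (0.23, limma adjusted p = 0.0292), a call lost without any 1 library other than Farage replicate 2 or SUDHL6 replicate 3, and POU2AF1, the octamer coactivator, did not pass the test (0.15, limma adjusted p = 0.432). All differences here are Farage minus SUDHL6 on the log2(FPKM + 1) scale, which understates changes of weakly expressed genes, and adjusted p-values are Benjamini-Hochberg values from limma over the 11061 genes.

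Markers of other cell types were at or near 0. Of 12 T-cell and natural killer cell markers with their own locus, CD3D, CD3E, CD7 and GZMB were listed at 0 in all 6 libraries, and the summed level was 2.18 to 2.39 FPKM in Farage and 1.25 to 2.39 FPKM in SUDHL6. CD247, the CD3 zeta chain, was the member that reached 1 FPKM, in SUDHL6, at 0.778, 1.22 and 2.21 FPKM. Of 9 monocyte and dendritic markers, S100A8 and S100A9 were listed at 0 throughout, LYZ measured 1.21 to 1.57 FPKM in Farage and 0.694 to 1.49 FPKM in SUDHL6, and the integrin ITGAX, which some B cells carry, measured 4.06 to 4.47 FPKM in Farage and 0 to 0.426 FPKM in SUDHL6 (2.09, limma adjusted p = 3.17e-05). The summed level of these markers was 5.82 to 6.62 FPKM in Farage and 0.818 to 2.04 FPKM in SUDHL6. Of 10 stromal and epithelial markers, COL1A2, DCN, KRT19 and CDH5 were listed at 0 in all 6 libraries, KRT8 measured 1.05 to 1.58 FPKM in Farage and 0.187 to 0.689 FPKM in SUDHL6 (0.61, limma adjusted p = 0.0151, and 0.0517 without Farage replicate 1), and COL1A1 reached 1.06 FPKM in Farage. Their summed level was 2.14 to 2.71 FPKM in Farage and 0.187 to 1.16 FPKM in SUDHL6.

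SUDHL6 replicate 3 stood apart. Over the tested genes its log values correlated with those of SUDHL6 replicates 1 and 2 at r = 0.908 and 0.911, against 0.980 between those 2 libraries and 0.975 to 0.977 among the Farage libraries, a description across genes. The summed level over the mitochondrial chromosome was 2425 FPKM in it and 0 in the other 5 libraries. Of the 229 small RNA loci tested, 116 were listed at 0 in it, against 22 and 23 in its mates. Among the other 12 libraries, the mitochondrial sum was 2776 FPKM in the third SUDHL6 library under the inhibitor. It was 1521 to 1872 FPKM in the 3 SUDHL4 libraries under the inhibitor and 0 in the rest. Results are therefore also given without SUDHL6 replicate 3 for many of the genes and lists that this changes. Total FPKM per library was 1130063 to 1341281, and small RNA loci took 41.9% to 50.2% of it. With no read counts in the table, the absolute depth is unknown. As these are bulk samples, fewer cells in a given state and less RNA per cell cannot be told apart.

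The lines differed widely. Of 11061 genes, 3891 (35.2%) were higher and 3911 (35.4%) were lower in Farage at an adjusted p under 0.05, and 1728 (15.6%) and 1196 (10.8%) were so by at least 1 on the log2 scale. In either direction 7802 (70.5%) were called. Without SUDHL6 replicate 3, 4400 (39.8%) were higher and 4064 (36.7%) lower. The 3 libraries of each line did not overlap for 4171 genes (37.7%) with Farage above and 4280 genes (38.7%) with Farage below. The median difference of all tested genes was -0.01. At the edge of the filter, RNF208 was kept with a third-highest value of 1 FPKM, as was ANKRD61 at 1.0004 FPKM, while GRHL1 at 0.9996 FPKM and ERBB2 at 0.998 FPKM were left out.

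**Figure D1:**
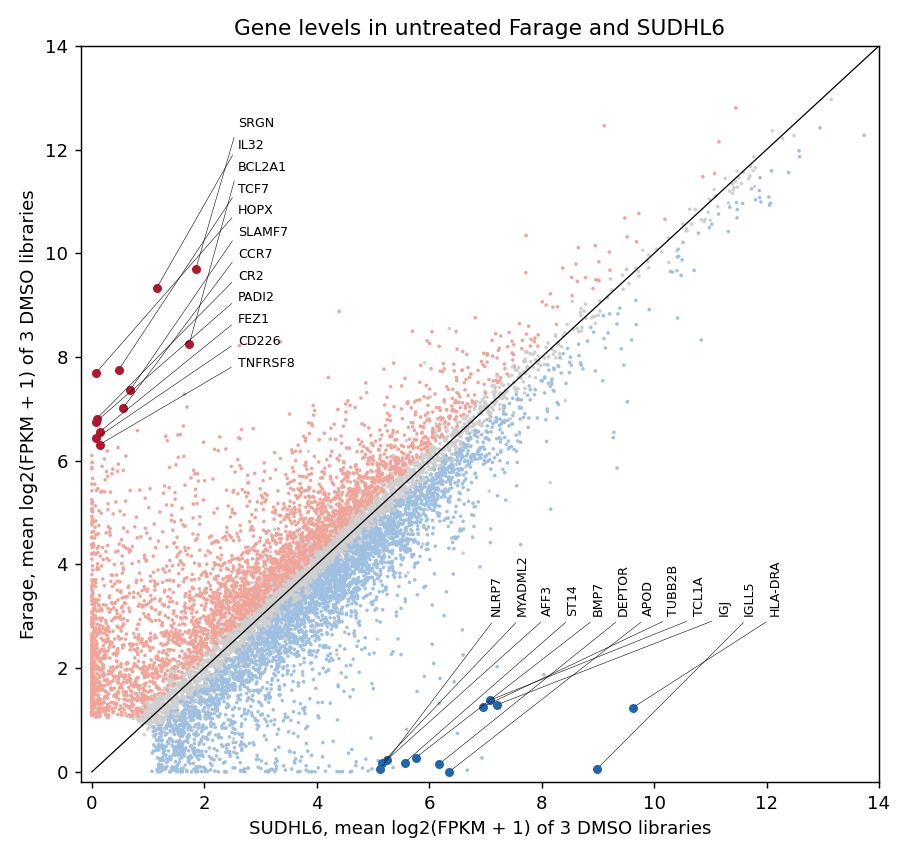
Mean log2(FPKM + 1) of the 3 DMSO libraries of SUDHL6 (horizontal) and Farage (vertical), 1 point per tested gene apart from small RNA loci. Pale red and pale blue points passed the test as higher or lower in Farage, grey points did not, the line marks equal levels, and the 12 labelled genes on each side had the largest differences among the genes that the naming rule admits, up to 8.18 for IL32 and down to -8.93 for IGLL5.

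Of the 12 genes with the largest positive differences under the naming rule, IL32, a cytokine gene usually studied in T and natural killer cells and lying in hg19 at chr16:3096682-3132286, measured 613, 691 and 629 FPKM in Farage and 1.13, 0.971 and 1.62 FPKM in SUDHL6 (difference 8.18 ± 0.12 (SE), limma adjusted p = 6.51e-08). Its mean was 645 ± 41.1 FPKM (SD, n = 3) in Farage and 1.24 ± 0.337 FPKM (SD, n = 3) in SUDHL6. SRGN, the proteoglycan of secretory granules, stood at 752, 908 and 852 FPKM in Farage and 1.8, 1.47 and 5.79 FPKM in SUDHL6, with the highest SUDHL6 value in replicate 3 (difference 7.86 ± 0.38 (SE), limma adjusted p = 8.03e-06). HOPX, a homeodomain cofactor, was almost absent from SUDHL6, at 195, 222 and 198 FPKM in Farage and 0.0324, 0 and 0.108 FPKM in SUDHL6 (difference 7.62 ± 0.08 (SE), limma adjusted p = 3.89e-08). TCF7, a transcription factor of T-cell development, measured 214, 214 and 217 FPKM in Farage and 0.354, 0.265 and 0.576 FPKM in SUDHL6 (difference 7.28 ± 0.09 (SE), limma adjusted p = 4.33e-08). The libraries of the lines did not overlap for any of these 4 genes. CD226, an activating receptor of T and natural killer cells, measured 82.1 to 87.2 FPKM in Farage and 0.0249 to 0.0893 FPKM in SUDHL6 (6.36, limma adjusted p = 3.89e-08). SLAMF7, a receptor of plasma cells and natural killer cells, measured 161 to 168 FPKM in Farage and 0.532 to 0.663 FPKM in SUDHL6 (6.68, limma adjusted p = 3.89e-08). PADI2, which converts arginine to citrulline in proteins, measured 105 to 108 FPKM in Farage and 0.0353 to 0.0762 FPKM in SUDHL6 (6.68, limma adjusted p = 3.89e-08). FEZ1, a transport adaptor best known from neurons, measured 89.7 to 95.5 FPKM in Farage and 0 to 0.172 FPKM in SUDHL6 (6.42, limma adjusted p = 4.31e-08). CR2, BCL2A1, CCR7 and TNFRSF8 complete the 12 and are described with their groups.

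Of the 12 genes with the largest negative differences under that rule, IGLL5, at hg19 chr22:23229186-23265207, measured 556, 541 and 434 FPKM in SUDHL6 and 0.00775, 0.0825 and 0.0424 FPKM in Farage (difference -8.93 ± 0.11 (SE), limma adjusted p = 4.1e-08). IGLL5 lies among the immunoglobulin lambda segments and shares exons with lambda light chain transcripts, so its reads cannot be told apart from theirs. IGJ, the joining chain of IgM and IgA, measured 354, 221 and 39.6 FPKM in SUDHL6 and 1.39, 1.41 and 1.55 FPKM in Farage, with SUDHL6 replicate 3 far below its mates (difference -5.91 ± 0.77 (SE), limma adjusted p = 0.000657). The difference in IGJ was -5.28 without SUDHL6 replicate 1 and -6.84 without replicate 3. TCL1A, an Akt coactivator of germinal centre and naive B cells, measured 165, 141 and 104 FPKM in SUDHL6 and 1.69, 1.68 and 1.44 FPKM in Farage (difference -5.7 ± 0.17 (SE), limma adjusted p = 1.07e-06). APOD, a lipocalin, was listed at 0 in all 3 Farage libraries and stood at 150.1, 114 and 30.4 FPKM in SUDHL6 (limma adjusted p = 0.000118). DEPTOR, an inhibitor of mTOR, measured 0.101 to 0.128 FPKM in Farage and 63.4 to 78.3 FPKM in SUDHL6 (-6.03, limma adjusted p = 6.81e-08). TUBB2B, a beta-tubulin whose sequence is close to that of TUBB2A and whose reads may be split with it, measured 1.28 to 1.54 FPKM in Farage and 104 to 149 FPKM in SUDHL6 (-5.7, limma adjusted p = 4.19e-07). BMP7, a bone morphogenetic protein, measured 0.196 to 0.229 FPKM in Farage and 47.4 to 58.3 FPKM in SUDHL6 (-5.49, limma adjusted p = 8.28e-08). ST14, the protease matriptase, measured 0.111 to 0.157 FPKM in Farage and 42.6 to 52.9 FPKM in SUDHL6 (-5.38, limma adjusted p = 1.2e-07). NLRP7, an inflammasome-family gene, measured 0.0205 to 0.0484 FPKM in Farage and 20.2 to 47.5 FPKM in SUDHL6 (-5.08, limma adjusted p = 1.97e-05). MYADML2 measured 0.0415 to 0.176 FPKM in Farage and 32.5 to 36.1 FPKM in SUDHL6 (-4.99, limma adjusted p = 7.68e-08). AFF3 and HLA-DRA are described with their groups, as are CD24 (-6.67) and TNFRSF13B (-5.27), which the rule did not admit because the table places CD24 on chromosome Y and gives the name TNFRSF13B to 2 loci.

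**Figure D2:**
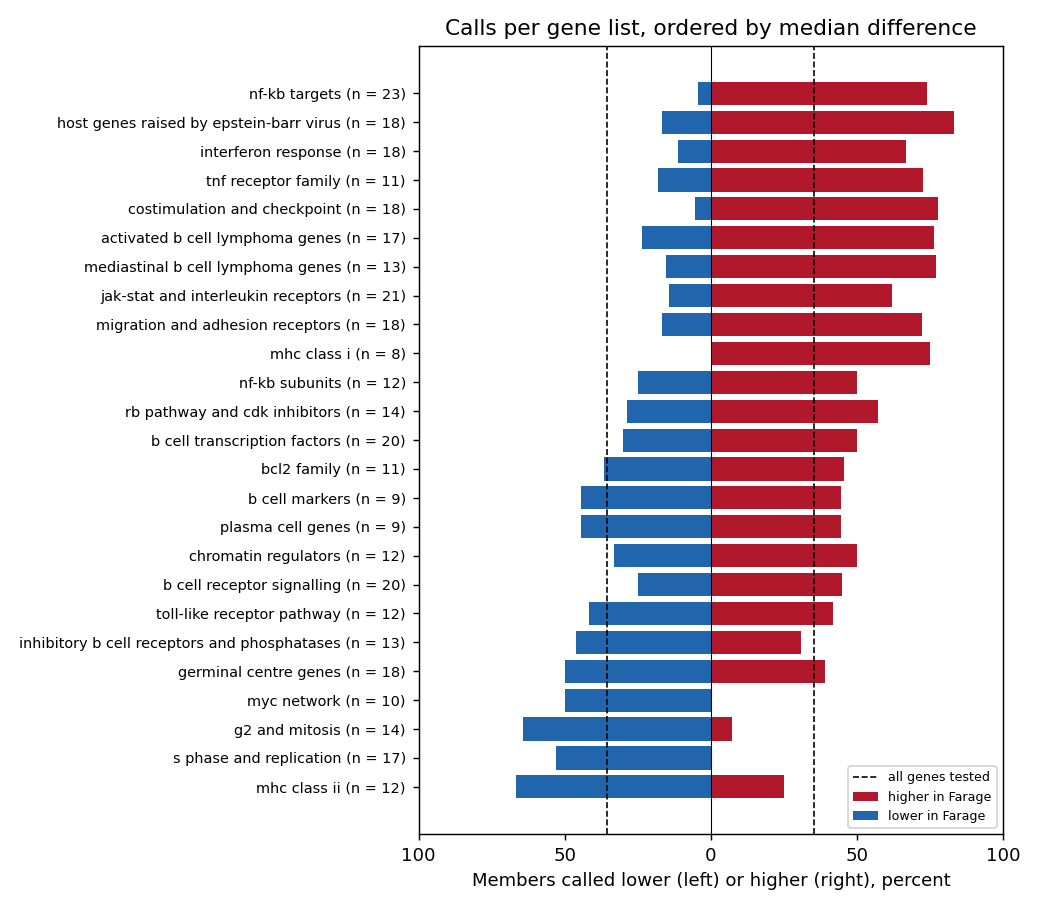
Percent of the tested members of each gene list called higher (right, red) or lower (left, blue) in Farage, for the 25 lists with at least 8 tested members on loci of their own, ordered by the median difference, with n the members tested. The dashed lines give the shares of all tested genes, 35.2% higher and 35.4% lower. NF-kB targets have the highest median, 2.63, and MHC class II genes the lowest, -0.86.

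The gene lists held 508 genes, of which 412 had a locus of their own, 82 lay only in a locus merged with another gene and 14 had none. Counts are over members on loci of their own that passed the filter. Each list count is to be read beside the shares of all genes tested, 35.2% higher and 35.4% lower in Farage. In every list, a gene under 1 FPKM in all libraries of 1 line passed the filter through the other line and had to be higher there. The counts therefore describe the tested members and not the whole lists. Merged loci are named with all their genes.

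NF-kB targets were mostly higher in Farage, with 17 higher and 1 lower in Farage among 23 tested of 31 listed and a median difference of 2.63. Without SUDHL6 replicate 3 the counts were 19 and 2. Thus 17 of 23 were higher by at least 1, against 15.6% of all genes. Members under 1 FPKM in every SUDHL6 library, CCR7 and FAS among them, passed the filter through Farage and had to be higher. TNFAIP3, which encodes the A20 deubiquitinase that ends NF-kB signals, at hg19 chr6:138144807-138204554, measured 86.2, 80.6 and 81.5 FPKM in Farage and 1.14, 1.59 and 1.94 FPKM in SUDHL6 (difference 5.04 ± 0.12 (SE), limma adjusted p = 4.45e-07). The mean in Farage was 53.1 times that in SUDHL6, and the libraries did not overlap. BCL2A1, a pro-survival BCL2 relative, measured 280.4, 323 and 307 FPKM in Farage and 1.12, 1.33 and 6.4 FPKM in SUDHL6 (difference 6.52 ± 0.47 (SE), limma adjusted p = 4.67e-05), with SUDHL6 replicate 3 above its mates and still far under Farage. CCR7, the chemokine receptor that guides lymphocytes to lymph nodes, measured 127, 128 and 128 FPKM in Farage and 0.508, 0.367 and 0.51 FPKM in SUDHL6 (difference 6.46 ± 0.06 (SE), limma adjusted p = 3.89e-08). FAS, the death receptor CD95, measured 52.8, 53.5 and 52 FPKM in Farage and 0.263, 0.244 and 0.334 FPKM in SUDHL6 (difference 5.39 ± 0.06 (SE), limma adjusted p = 3.89e-08). For each of these 4 genes the lowest Farage library exceeded the highest SUDHL6 library.

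Other NF-kB targets followed at smaller differences. IRF1, an interferon-responsive transcription factor, measured 32.1 to 34.5 FPKM in Farage and 1.81 to 2.18 FPKM in SUDHL6 (3.48, limma adjusted p = 2.61e-07). MARCKS, an actin-binding kinase substrate, measured 41.6 to 42.9 FPKM in Farage and 0.282 to 2.22 FPKM in SUDHL6 (4.58, limma adjusted p = 5.35e-05). JUNB, an AP-1 subunit, measured 60.8 to 82.8 FPKM in Farage and 2.99 to 5.4 FPKM in SUDHL6 (3.95, limma adjusted p = 1.18e-05). CFLAR, which encodes the caspase-8 inhibitor c-FLIP, measured 78.7 to 83.1 FPKM in Farage and 2.71 to 3.13 FPKM in SUDHL6 (4.37, limma adjusted p = 7.51e-08). CD40, the receptor for T-cell help, measured 98.1 to 105 FPKM in Farage and 22.1 to 37.9 FPKM in SUDHL6 (1.84, limma adjusted p = 0.000226). GADD45B, a stress-response gene, measured 81.4 to 87.3 FPKM in Farage and 11.7 to 15.6 FPKM in SUDHL6 (2.63, limma adjusted p = 5.65e-06). PLEK, a pleckstrin of haematopoietic cells, measured 339.7 to 378 FPKM in Farage and 43.5 to 121 FPKM in SUDHL6 (2.44, limma adjusted p = 0.00126). CCL22, a chemokine, measured 7.74 to 8.01 FPKM in Farage and 0.0372 to 0.326 FPKM in SUDHL6 (2.86, limma adjusted p = 2.99e-06). The 4 shared loci that hold targets, BIRC3 with BIRC2, TRAF1 with C5 and PHF19, ICAM1 with ICAM4 and EBI3 with CCDC94, were each higher in Farage, for example 187 to 198 FPKM in Farage and 39.6 to 56.1 FPKM in SUDHL6 for the BIRC2 and BIRC3 locus (2.02, limma adjusted p = 2.63e-05).

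LTB, the lymphotoxin beta gene, was the target lower in Farage, at 22.8, 22.9 and 20.5 FPKM in Farage and 44.7, 96.9 and 290.4 FPKM in SUDHL6 (difference -2.25 ± 0.63 (SE), limma adjusted p = 0.0183). Its SUDHL6 values spread widely, with replicate 3 the highest. Its difference was -1.54 without replicate 3 and -2.88 without replicate 1. Leaving out any 1 Farage library raised its adjusted p to at most 0.0554. CD83, TNF, SOD2, CCL3 and IER3 did not pass, though CCL3 was lower in Farage without SUDHL6 replicate 3 (limma adjusted p = 0.0412). TNF measured 21.2, 21.6 and 20.3 FPKM in Farage and 5.15, 8.01 and 37.2 FPKM in SUDHL6, and CD83, a maturation marker, 52.3, 53.7 and 53.5 FPKM in Farage and 31, 33.6 and 59.3 FPKM in SUDHL6, so that SUDHL6 replicate 3 exceeded every Farage library. Without that library both were higher in Farage (limma adjusted p = 0.000317 and 0.000103). In SUDHL6, replicate 3 lay above both mates for 16 of the 23 tested targets, against 52.7% of all genes tested; the part of this library in the result was not tested beyond leaving it out.

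The genes of the NF-kB machinery were split. Of 12 tested, 6 were higher and 3 lower in Farage, with a median of 0.63, beside 35.2% and 35.4% of all genes. NFKB1, which encodes the p105 and p50 subunit, measured 72.1, 70.2 and 72.2 FPKM in Farage and 9.9, 11 and 15.9 FPKM in SUDHL6 (difference 2.47 ± 0.16 (SE), limma adjusted p = 3.03e-05). NFKB2, which encodes p100 and p52, measured 150.0, 146 and 145 FPKM in Farage and 26, 31.9 and 22.6 FPKM in SUDHL6 (difference 2.42 ± 0.12 (SE), limma adjusted p = 9.96e-06). NFKBIA, the inhibitor that NF-kB itself induces, measured 134, 138 and 135 FPKM in Farage and 16.7, 22.5 and 27.8 FPKM in SUDHL6 (difference 2.58 ± 0.17 (SE), limma adjusted p = 3.18e-05). Every Farage library exceeded every SUDHL6 library for each. MAP3K14, the NIK kinase of the alternative pathway, was also higher (1.25, limma adjusted p = 5.7e-05), as were RELB (0.92, limma adjusted p = 0.000166) and BCL3 (0.62, limma adjusted p = 0.00243). RELA, IKBKB and NFKBIB were lower in Farage, IKBKB, the catalytic kinase of the canonical pathway, at 9.64 to 10.9 FPKM in Farage and 23.9 to 28.1 FPKM in SUDHL6 (-1.23, limma adjusted p = 3.4e-05). REL, which encodes c-Rel, measured 43.1, 37.7 and 42 FPKM in Farage and 20.0, 17.9 and 47.3 FPKM in SUDHL6 and did not pass (limma adjusted p = 0.147), but was higher in Farage without SUDHL6 replicate 3 (limma adjusted p = 9.65e-05).

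**Figure D3:**
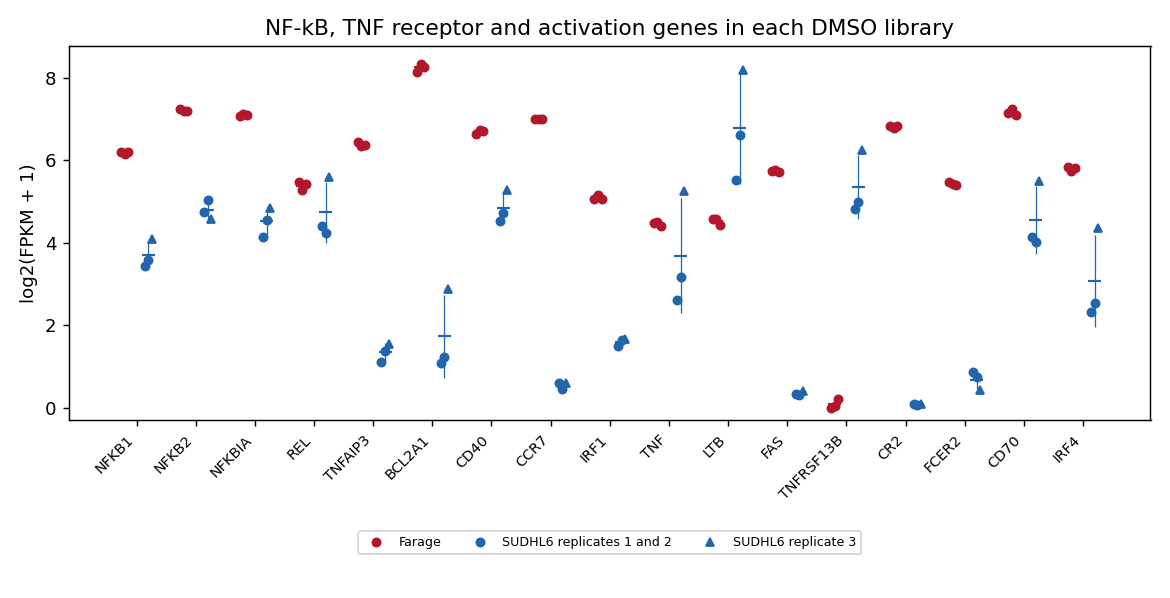
Levels of 17 NF-kB, TNF receptor and activation genes, log2(FPKM + 1) in each DMSO library, with the mean (bar) and SD (line) of 3 libraries per line. Farage (red) lies above SUDHL6 (blue) for NFKB1, TNFAIP3, CCR7 and FAS, the triangles of SUDHL6 replicate 3 reach or pass Farage for REL and TNF, and LTB and TNFRSF13B are lower in Farage.

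The promoters of 5 NF-kB genes that were higher in Farage, and of IL32, which is on neither NF-kB list, are shown because they hold matches to the kappa-B consensus, the 10-base element that NF-kB dimers bind. They were picked for those matches, and the windows of BCL2A1 and FAS, targets with larger differences than the targets shown, and of JUNB, MARCKS and PLEK hold none. Windows of 300 bases, from 250 before to 50 after the gene start, come from RefSeq (GRCh38.p14) and were searched on both strands, with overlapping matches counted. The capitals mark the matches, and coordinates are chr16:3065153-3065452 on the plus strand for IL32, chr6:137867009-137867308 on the plus strand for TNFAIP3, chr14:35404700-35404999 on the minus strand for NFKBIA, chr4:102501109-102501408 on the plus strand for NFKB1, chr5:132490724-132491023 on the minus strand for IRF1 and chr16:57358533-57358832 on the plus strand for CCL22. Each is written 5′ to 3′ along its gene.
IL32: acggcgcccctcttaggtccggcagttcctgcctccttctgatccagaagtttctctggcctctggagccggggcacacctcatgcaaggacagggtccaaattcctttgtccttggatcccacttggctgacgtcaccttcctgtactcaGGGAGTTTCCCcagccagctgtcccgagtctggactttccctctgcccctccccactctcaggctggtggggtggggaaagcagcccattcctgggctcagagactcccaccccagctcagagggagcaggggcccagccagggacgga
TNFAIP3: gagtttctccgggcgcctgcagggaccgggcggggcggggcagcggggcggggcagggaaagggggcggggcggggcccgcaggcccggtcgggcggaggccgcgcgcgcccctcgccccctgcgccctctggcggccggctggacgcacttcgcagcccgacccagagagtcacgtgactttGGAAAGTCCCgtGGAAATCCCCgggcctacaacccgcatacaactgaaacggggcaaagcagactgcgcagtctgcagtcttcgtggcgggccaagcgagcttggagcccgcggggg
NFKBIA: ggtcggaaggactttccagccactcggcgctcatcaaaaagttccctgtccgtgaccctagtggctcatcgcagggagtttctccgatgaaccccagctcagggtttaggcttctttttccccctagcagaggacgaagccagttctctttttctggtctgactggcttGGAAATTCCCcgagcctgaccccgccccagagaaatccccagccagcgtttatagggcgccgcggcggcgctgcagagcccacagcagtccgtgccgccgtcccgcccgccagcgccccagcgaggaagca
NFKB1: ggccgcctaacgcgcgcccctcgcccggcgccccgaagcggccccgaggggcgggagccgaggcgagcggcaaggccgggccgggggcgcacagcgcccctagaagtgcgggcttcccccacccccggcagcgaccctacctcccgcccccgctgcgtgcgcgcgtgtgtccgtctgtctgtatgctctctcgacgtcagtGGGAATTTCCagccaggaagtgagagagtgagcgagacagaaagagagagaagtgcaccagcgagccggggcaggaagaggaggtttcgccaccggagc
IRF1: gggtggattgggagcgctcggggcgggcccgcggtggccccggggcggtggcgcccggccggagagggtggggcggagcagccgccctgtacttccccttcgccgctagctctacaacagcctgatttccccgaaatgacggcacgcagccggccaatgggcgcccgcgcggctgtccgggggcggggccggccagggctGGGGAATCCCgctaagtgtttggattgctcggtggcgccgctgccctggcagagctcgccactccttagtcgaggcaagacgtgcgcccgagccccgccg
CCL22: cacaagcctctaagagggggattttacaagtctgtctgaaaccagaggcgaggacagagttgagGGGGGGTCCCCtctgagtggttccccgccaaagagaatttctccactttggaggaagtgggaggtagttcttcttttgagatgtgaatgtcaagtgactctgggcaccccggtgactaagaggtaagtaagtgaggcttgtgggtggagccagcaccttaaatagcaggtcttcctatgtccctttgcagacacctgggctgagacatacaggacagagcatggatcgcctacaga
TNFAIP3 holds 2 adjacent matches, IL32 and CCL22 each hold 2 overlapping ones, and NFKBIA, NFKB1 and IRF1 hold 1. Of the NF-kB targets, 26 had a window and 10 held a match (38.5%), as did 6 of 13 genes of the machinery (46.2%), against 3956 of all 35116 windows (11.3%). Among targets higher in Farage, 5 of 14 with a window held one (35.7%), and LTB, which was lower, held 2. A match describes the sequence and not a binding site in these cells.

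TNF receptor family genes were 8 higher and 2 lower in Farage among 11 tested of 18 listed, all 10 by at least 1, against 15.6% and 10.8% of all genes. Members under 1 FPKM in every SUDHL6 library, TNFRSF8, TNFRSF14, TNFRSF9, FAS and TNFSF4 among them, passed the filter through Farage alone. TNFRSF13B passed it through SUDHL6 alone. These members had to differ, so the counts and the shares are not like for like. TNFRSF8, which encodes CD30, a receptor of activated lymphocytes and Hodgkin cells, measured 80.7, 78.3 and 76.5 FPKM in Farage and 0.027, 0.0261 and 0.261 FPKM in SUDHL6 (difference 6.18 ± 0.10 (SE), limma adjusted p = 8.26e-08). TNFRSF14, the herpesvirus entry mediator that binds BTLA, measured 73.9, 71 and 71 FPKM in Farage and 0.276, 0.151 and 0.202 FPKM in SUDHL6 (difference 5.92 ± 0.06 (SE), limma adjusted p = 3.89e-08). TNFRSF9, which encodes 4-1BB, measured 40.5 to 41.6 FPKM in Farage and 0.0174 to 0.174 FPKM in SUDHL6 (5.24, limma adjusted p = 6.45e-08). TNFRSF10B, a TRAIL receptor, measured 29.9 to 31.6 FPKM in Farage and 3.84 to 5.39 FPKM in SUDHL6 (2.5, limma adjusted p = 5.34e-06). Both lower members bind BAFF-family ligands. TNFRSF13B, which encodes TACI, measured 0, 0.0263 and 0.157 FPKM in Farage and 27.4, 30.7 and 75.4 FPKM in SUDHL6 (difference -5.27 ± 0.37 (SE), limma adjusted p = 4.08e-05). TNFRSF17, which encodes BCMA, measured 10.7, 10.9 and 11.2 FPKM in Farage and 27.5, 34.6 and 83.2 FPKM in SUDHL6 (difference -1.88 ± 0.39 (SE), limma adjusted p = 0.00518). For both, SUDHL6 replicate 3 was the highest library. The locus that TNFRSF13C, the BAFF receptor gene, shares with CENPM measured 91.5 to 102 FPKM in Farage and 80.9 to 116 FPKM in SUDHL6 and did not pass (limma adjusted p = 0.857).

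Host genes known to be raised by Epstein-Barr virus in B cells were 15 higher and 3 lower in Farage among 18 tested of 26 listed, against 35.2% and 35.4% of all genes. Each of the 18 differed by at least 1, as did 15.6% of all genes upward and 10.8% downward. Members under 1 FPKM in every SUDHL6 library, CR2, FCER2, FGR, IL10 and PLAUR among them, passed the filter through Farage. These had to be higher there, so the counts and the shares are not like for like. The virus's own transcripts were not analysed here. CR2, which encodes CD21, the complement receptor the virus uses to enter B cells, measured 112, 109 and 112 FPKM in Farage and 0.070, 0.056 and 0.0579 FPKM in SUDHL6 (difference 6.72 ± 0.05 (SE), limma adjusted p = 3.89e-08). FCER2, which encodes CD23, the low-affinity IgE receptor, measured 43.3, 41.6 and 41.2 FPKM in Farage and 0.821, 0.664 and 0.357 FPKM in SUDHL6 (difference 4.75 ± 0.12 (SE), limma adjusted p = 4.57e-07). FGR, a Src-family kinase, measured 44.1, 47 and 46.1 FPKM in Farage and 0.055, 0.0102 and 0.0454 FPKM in SUDHL6 (difference 5.5 ± 0.06 (SE), limma adjusted p = 3.89e-08). Their SUDHL6 libraries lay under 1 FPKM. CD70, the CD27 ligand, measured 141, 149.5 and 135 FPKM in Farage and 16.6, 15.3 and 44.4 FPKM in SUDHL6 (difference 2.6 ± 0.39 (SE), limma adjusted p = 0.00122). SLAMF1, a costimulatory receptor, measured 117 to 119.5 FPKM in Farage and 8.69 to 12.6 FPKM in SUDHL6 (3.38, limma adjusted p = 2.51e-06). IL10, an immunoregulatory cytokine, measured 5.64 to 5.89 FPKM in Farage and 0.0804 to 0.313 FPKM in SUDHL6 (2.48, limma adjusted p = 2.26e-06). PLAUR, the urokinase receptor, was listed at 0 in the 3 SUDHL6 libraries and stood at 6.29, 6.64 and 6.25 FPKM in Farage (limma adjusted p = 1.88e-07). The 3 lower members were ITGAL, the LFA-1 integrin chain (-1.15, limma adjusted p = 0.000663), HES1, a Notch target (-1.15, limma adjusted p = 0.0005), and DUSP5, a phosphatase of ERK (-1.26, limma adjusted p = 0.000575). The locus of MIR155HG and MIR155 measured 63.7, 75.5 and 76.2 FPKM in Farage and 228, 4.24 and 1.51 FPKM in SUDHL6 and did not pass, with SUDHL6 replicate 1 above all other libraries.

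Genes that mark the activated B-cell-like subtype of this lymphoma were 13 higher and 4 lower in Farage among 17 tested of 23 listed, against 35.2% and 35.4% of all genes. The labels call both lines GCB. IRF4, the factor of plasma cell commitment, measured 56.1, 52.3 and 55.3 FPKM in Farage and 3.98, 4.8 and 19.6 FPKM in SUDHL6, with SUDHL6 replicate 3 above its mates and under Farage (difference 2.72 ± 0.53 (SE), limma adjusted p = 0.00391, and 3.37 without that library). CFLAR, given above, and ENTPD1, the ectonucleotidase CD39, were higher, ENTPD1 at 91.8 to 98.8 FPKM in Farage and 4.79 to 5.9 FPKM in SUDHL6 (3.94, limma adjusted p = 2.53e-07), as was BATF3, an AP-1-family factor, at 23.8 to 28.1 FPKM in Farage and 1.41 to 3.79 FPKM in SUDHL6 (3.09, limma adjusted p = 8.66e-05). BATF itself measured 106, 102 and 94 FPKM in Farage and 12.5, 11.7 and 63.2 FPKM in SUDHL6 (difference 2.19 ± 0.62 (SE), limma adjusted p = 0.0192), a call lost without any 1 library other than SUDHL6 replicate 3 (highest adjusted p = 0.0601). Without that library the difference in BATF was 2.95. FOXP1, PIM1, BMF and TNFRSF13B were lower, FOXP1, a forkhead repressor, at 0.199 to 0.272 FPKM in Farage and 1.21 to 3.28 FPKM in SUDHL6 (-1.44, limma adjusted p = 0.00264). Genes of primary mediastinal B-cell lymphoma, another subtype, were 10 higher and 2 lower in Farage among 13 tested of 20 listed. The shares of all genes were again 35.2% and 35.4%. Without SUDHL6 replicate 3 the counts were 11 and 2. Members under 1 FPKM in every SUDHL6 library, TNFRSF8, FCER2, CD200, TNFAIP2 and CD274 among them, passed the filter through Farage. These had to be higher there, so the counts and the shares are not like for like. CD200, an immune-regulatory ligand, measured 11.3 to 11.8 FPKM in Farage and 0 to 0.0302 FPKM in SUDHL6 (3.62, limma adjusted p = 7.9e-08). TNFAIP2, a TNF-induced gene, measured 5.69 to 6.72 FPKM in Farage and 0 to 0.0601 FPKM in SUDHL6 (2.83, limma adjusted p = 6.63e-07). CD274, which encodes PD-L1, measured 4.06 to 4.28 FPKM in Farage and 0.0184 to 0.0643 FPKM in SUDHL6 (2.32, limma adjusted p = 4.7e-07), while MAL, a lipid raft protein, stayed under 1 FPKM in both lines. TNFRSF8, FCER2, JAK2 and TNFAIP2 are held by other lists as well.

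Costimulation and checkpoint genes were 14 higher and 1 lower in Farage among 18 tested of 23 listed, against 35.2% and 35.4% of all genes. Members near 0 in SUDHL6, TNFSF4, CD200 and CD274 among them, passed the filter through Farage, and HAVCR2 passed it through SUDHL6. CD80, which encodes B7-1, a ligand of CD28 and CTLA4, measured 63.5, 60.6 and 65.1 FPKM in Farage and 11.5, 11.1 and 11.5 FPKM in SUDHL6 (difference 2.38 ± 0.06 (SE), limma adjusted p = 4.13e-07), and its relative CD86 33.1, 33 and 33.3 FPKM in Farage and 26.1, 30.9 and 45.5 FPKM in SUDHL6, which overlapped (limma adjusted p = 0.989, and 0.0463 without SUDHL6 replicate 3, with Farage higher). LY9, a SLAM-family receptor, measured 38 to 41.9 FPKM in Farage and 5.15 to 6.51 FPKM in SUDHL6 (2.6, limma adjusted p = 2.27e-06). TNFSF4, which encodes OX40 ligand, measured 4.54 to 4.8 FPKM in Farage and 0.101 to 0.321 FPKM in SUDHL6 (2.2, limma adjusted p = 3.78e-06). HAVCR2, which encodes TIM-3, was the member lower in Farage, at 0.368 to 0.483 FPKM in Farage and 4.54 to 5.84 FPKM in SUDHL6 (-2.12, limma adjusted p = 5.28e-06). CD58, the ligand of CD2, stayed under 1 FPKM in every library.

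Genes of Janus kinase and STAT signalling were 13 higher and 3 lower in Farage among 21 tested of 26 listed, with a median of 1.41. Of all genes, 35.2% were higher and 35.4% lower. Without SUDHL6 replicate 3 the counts were 13 and 4, with a median of 1.09. Members under 1 FPKM in every SUDHL6 library, STAT5A and IL2RB among them, passed the filter through Farage and had to be higher. STAT5A, a mediator of interleukin-2-type signals, measured 21.9, 23.6 and 22.7 FPKM in Farage and 0.273, 0.321 and 0.173 FPKM in SUDHL6 (difference 4.24 ± 0.07 (SE), limma adjusted p = 1.01e-07). STAT3, which interleukins 6, 10 and 21 activate, measured 45.2 to 48.2 FPKM in Farage and 10.1 to 11.2 FPKM in SUDHL6 (2.06, limma adjusted p = 1.22e-06). STAT6, which interleukins 4 and 13 activate, was slightly lower, at 88.5, 94.7 and 90.3 FPKM in Farage and 102, 107 and 104 FPKM in SUDHL6 (difference -0.19 ± 0.06 (SE), limma adjusted p = 0.0284), a call lost under 6 alternative settings, leaving out Farage replicate 1 or 3 or SUDHL6 replicate 2 among them. The kinases JAK1, JAK2 and JAK3 were each higher in Farage, JAK2 at 12.8 to 14.9 FPKM in Farage and 1.19 to 1.7 FPKM in SUDHL6 (2.64, limma adjusted p = 3.14e-06), JAK3 at 18 to 19.5 FPKM in Farage and 2.0 to 2.69 FPKM in SUDHL6 (2.59, limma adjusted p = 2.13e-06) and JAK1 at 50.2 to 53.1 FPKM in Farage and 12.6 to 14.1 FPKM in SUDHL6 (1.87, limma adjusted p = 2.21e-06). Among receptors, IL2RB, the interleukin-2 receptor beta chain, measured 35.7, 34.3 and 35.3 FPKM in Farage and 0.00794, 0 and 0 FPKM in SUDHL6 (difference 5.17 ± 0.05 (SE), limma adjusted p = 3.89e-08). IL21R measured 30.2 to 31.3 FPKM in Farage and 3.37 to 3.67 FPKM in SUDHL6 (2.82, limma adjusted p = 2.21e-07). IL4R measured 37.9, 38.9 and 39.4 FPKM in Farage and 51.8, 76 and 8.58 FPKM in SUDHL6, with SUDHL6 replicate 3 far under its mates, and passed without that library, as lower in Farage by 0.68 (limma adjusted p = 0.00932).

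Interferon response genes were 12 higher and 2 lower in Farage among 18 tested of 28 listed, and 6 further members lay under the filter. The shares over all genes were 35.2% and 35.4%. Members near 0 in SUDHL6, such as GBP1, GBP2 and IFI6, passed the filter through Farage. In the BCL6 inhibitor libraries 12 were higher and 5 lower in Farage, beside 30.4% and 32.1% of all genes there. The median difference was 2.29 in DMSO and 1.12 under the inhibitor. IFITM1, an antiviral membrane protein, measured 90.2, 93.8 and 85.8 FPKM in Farage and 1.84, 2.12 and 1.98 FPKM in SUDHL6 (difference 4.93 ± 0.07 (SE), limma adjusted p = 5.42e-08). MX1, an antiviral GTPase, measured 27.3, 25.5 and 23.7 FPKM in Farage and 0.531, 0.432 and 1.23 FPKM in SUDHL6 (difference 3.96 ± 0.18 (SE), limma adjusted p = 5.55e-06). GBP1 and GBP2, guanylate-binding proteins of the interferon gamma response, were listed at 0 in the 3 SUDHL6 libraries and stood at 11.7 to 12 and 7.32 to 7.68 FPKM in Farage (limma adjusted p = 6.2e-08 and 1.23e-07). IFI6 measured 9.93 to 12.5 FPKM in Farage and 0 to 0.144 FPKM in SUDHL6 (limma adjusted p = 1.14e-06). MX2 and SP110, a nuclear body protein, were lower in Farage, SP110 at 12.8 to 14.2 FPKM in Farage and 39.6 to 42.6 FPKM in SUDHL6 (-1.53, limma adjusted p = 4.47e-06). IFIT1, IFIT2, IFIT3, IFI44 and IFI44L, genes of the type I interferon response, did not pass the filter in these libraries. Without SUDHL6 replicate 3, 4 members were lower, SAMD9 and TRIM22 with those named (limma adjusted p = 0.000916 and 0.00937).

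MHC class II genes were mostly lower in Farage, with 3 higher and 8 lower in Farage among 12 tested of 20 listed and a median of -0.86. Over all genes, 35.2% were higher and 35.4% lower. HLA-DRA, the alpha chain common to DR molecules, at hg19 chr6:32407614-32413764, measured 782, 651 and 949 FPKM in SUDHL6 and 1.7, 1.18 and 1.21 FPKM in Farage (difference -8.38 ± 0.16 (SE), limma adjusted p = 1.82e-07). The mean in SUDHL6 was 581 times that in Farage, and SUDHL4 stood at 1988, 1940.0 and 1995 FPKM. HLA-DPA1 measured 257, 272 and 331 FPKM in SUDHL6 and 32.1, 33.2 and 32.3 FPKM in Farage (difference -3.09 ± 0.10 (SE), limma adjusted p = 1.77e-06). HLA-DOA, a chain of the peptide-loading modulator DO, measured 42.1, 37.9 and 37.8 FPKM in SUDHL6 and 4.02, 3.58 and 3.87 FPKM in Farage (difference -3.06 ± 0.07 (SE), limma adjusted p = 4.01e-07). CD74, the invariant chain that escorts class II molecules, measured 1148, 1401 and 1591 FPKM in SUDHL6 and 437, 431 and 422 FPKM in Farage (difference -1.67 ± 0.13 (SE), limma adjusted p = 7.27e-05). HLA-DMA and HLA-DMB, which encode the peptide exchange factor DM, differed less, at -0.85 and -0.62 (limma adjusted p = 0.00269 and 0.0217), and HLA-DMB did not pass without Farage replicate 1 or 3 (highest adjusted p = 0.0728). The shared loci of HLA-DPB1 with HLA-DPB2, HLA-DQA1 with HLA-DQA2 and HLA-DQB1 with HLA-DQB2 were lower in Farage, at 2.94 to 3.55 FPKM in Farage and 63.2 to 71.8 FPKM in SUDHL6, 2.84 to 3.45 FPKM in Farage and 139.6 to 157 FPKM in SUDHL6 and 2.26 to 2.49 FPKM in Farage and 71.8 to 98.6 FPKM in SUDHL6. Of the other 3 shared loci, that of HLA-DOB and TAP2 was lower (-1.01, limma adjusted p = 0.00103), that of RFX5 and PI4KB did not pass, and that of IFI30, a lysosomal thiol reductase gene, with MAST3, MPV17L2 and PIK3R2 was higher (0.45, limma adjusted p = 0.0473), a call lost without any 1 library other than SUDHL6 replicate 3. HLA-DRB1 was listed at 0 in all 6 libraries, and these near-identical, polymorphic genes may have lost or shared reads.

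On the log2(FPKM + 1) scale, the regulators of class II genes differed by less than HLA-DRA, HLA-DPA1, HLA-DOA and CD74. That scale understates the differences of weakly expressed genes, and with a pseudocount of 0.1 CIITA differed by -1.48. Whether the regulators set the class II levels was not tested. CIITA, the class II coactivator, measured 2.31, 2.17 and 2.5 FPKM in Farage and 6.07, 6.78 and 7.14 FPKM in SUDHL6 (difference -1.2 ± 0.08 (SE), limma adjusted p = 2.91e-05), and the SUDHL4 level was 2.71, 2.71 and 2.21 FPKM, near that of Farage, while HLA-DRA in SUDHL4 was above that of SUDHL6. RFXAP, a subunit of the RFX complex that binds class II promoters, measured 2.84 to 3.22 FPKM in Farage and 6.08 to 6.67 FPKM in SUDHL6 (-0.87, limma adjusted p = 5.97e-05). RFXANK did not pass (-0.28, limma adjusted p = 0.0525), nor did the locus shared by RFX5 and PI4KB (0.02, limma adjusted p = 0.765). Proteases of the class II pathway ran the other way. LGMN, which encodes legumain, measured 12.4, 13.7 and 12.4 FPKM in Farage and 0.402, 0.461 and 0.0513 FPKM in SUDHL6 (difference 3.42 ± 0.14 (SE), limma adjusted p = 3.59e-06). CTSH, which encodes cathepsin H, measured 343 to 387 FPKM in Farage and 36.5 to 63.8 FPKM in SUDHL6 (2.8, limma adjusted p = 5.06e-05). CTSS, which encodes the cathepsin that trims the invariant chain, measured 34.1 to 37.5 FPKM in Farage and 16.8 to 19.4 FPKM in SUDHL6 (0.96, limma adjusted p = 6.02e-05).

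The promoter of HLA-DMA is shown since it holds the Y box, CTGATTGG, 1 of the elements that class II promoters share, at RefSeq GRCh38.p14 chr6:32953048-32953347 on the minus strand. The capitals mark the match, found in a search of both strands of the same 300-base window.
HLA-DMA: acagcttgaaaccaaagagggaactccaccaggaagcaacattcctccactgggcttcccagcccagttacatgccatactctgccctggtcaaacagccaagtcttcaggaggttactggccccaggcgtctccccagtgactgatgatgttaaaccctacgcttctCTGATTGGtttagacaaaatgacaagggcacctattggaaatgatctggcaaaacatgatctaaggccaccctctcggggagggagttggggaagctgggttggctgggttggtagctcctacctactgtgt
Of 16 class II list genes with a window, 5 held this 8-base motif (31.2%), namely HLA-DRB1, HLA-DRB5, HLA-DQB1, HLA-DMA and RFX5, against 1393 of all 35116 windows (3.97%). Among the 6 with a window that were lower in Farage on a locus of their own, HLA-DMA alone held it, and no match in the others says only that these letters are absent from their windows.

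MHC class I genes were 6 higher and 0 lower in Farage among 8 tested of 21 listed, with a median of 1.1. All genes tested gave 35.2% higher and 35.4% lower. B2M, the light chain of class I molecules, measured 1498, 1779 and 1657 FPKM in Farage and 688, 604 and 873 FPKM in SUDHL6 (difference 1.2 ± 0.16 (SE), limma adjusted p = 0.000735). NLRC5, the coactivator of class I genes, measured 27, 26.5 and 28.2 FPKM in Farage and 0.0275, 0.0302 and 0.0251 FPKM in SUDHL6 (difference 4.78 ± 0.06 (SE), limma adjusted p = 3.94e-08). PSMB9, an immunoproteasome subunit, measured 50.6, 59.1 and 49.9 FPKM in Farage and 4.55, 8.19 and 7.09 FPKM in SUDHL6 (difference 2.86 ± 0.19 (SE), limma adjusted p = 3.38e-05). Farage libraries lay above SUDHL6 libraries for each of these. ERAP1 and ERAP2, which trim peptides in the endoplasmic reticulum, measured 19.9 to 21.8 FPKM in Farage and 7.43 to 10.0 FPKM in SUDHL6 (1.26, limma adjusted p = 0.000143) and 13.2 to 15 FPKM in Farage and 6.1 to 6.78 FPKM in SUDHL6 (1.0, limma adjusted p = 4.49e-05). CANX and PDIA3, general chaperones, did not pass, and without SUDHL6 replicate 3 CANX was higher in Farage (limma adjusted p = 0.0449). Of 10 shared loci, 4 were higher and 3 lower: the locus of HLA-B and HLA-C measured 335 to 359.6 FPKM in Farage and 125 to 165 FPKM in SUDHL6, that of TAP1 and PSMB8 111 to 131 FPKM in Farage and 33.7 to 40.4 FPKM in SUDHL6, and that of TAP2 and HLA-DOB, which joins a class I and a class II gene, 45.3 to 51.8 FPKM in Farage and 79.7 to 117 FPKM in SUDHL6.

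**Figure D4:**
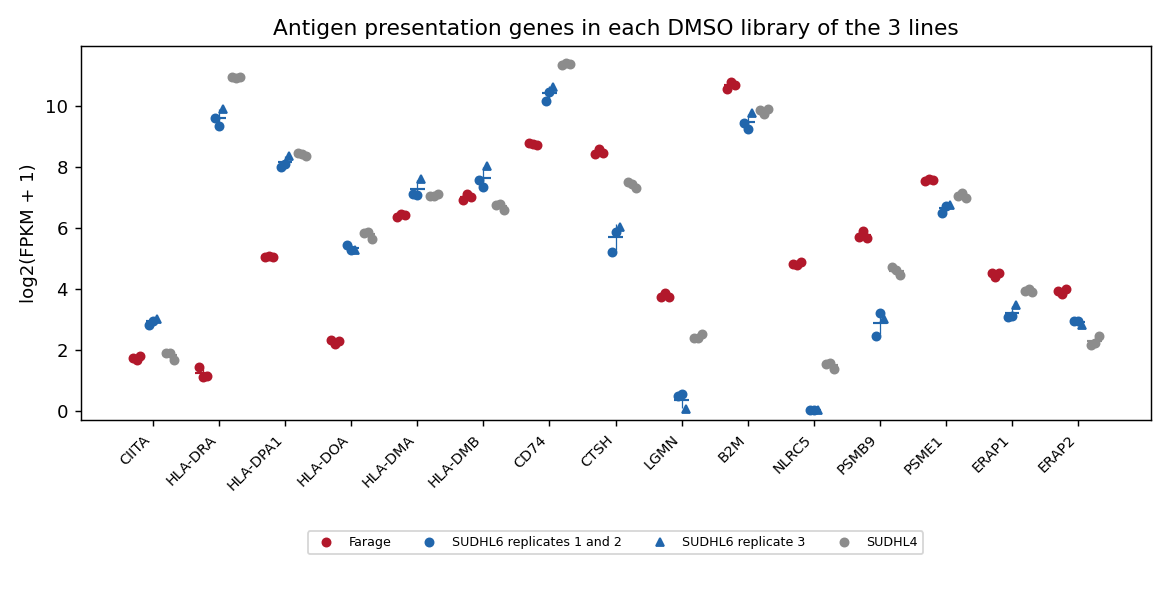
Levels of 15 antigen presentation genes, log2(FPKM + 1) in each DMSO library of Farage (red), SUDHL6 (blue, replicate 3 as triangles) and SUDHL4 (grey), with the mean (bar) and SD (line) of 3 libraries per line. HLA-DRA, HLA-DPA1, HLA-DOA and CD74 are lower in Farage than in both other lines, and NLRC5, B2M and PSMB9 are higher in Farage than in both.

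Genes of B-cell receptor signalling were mixed, with 9 higher and 5 lower in Farage among 20 tested of 22 listed and a median of 0.02. Over all genes tested the shares were 35.2% higher and 35.4% lower. SYK, the kinase that binds the receptor's phosphorylated chains, measured 13.8, 13.8 and 13.3 FPKM in Farage and 22.7, 21.3 and 21.5 FPKM in SUDHL6 (difference -0.64 ± 0.06 (SE), limma adjusted p = 0.000109). Among Src-family kinases, LYN was lower, at 18.2 to 18.9 FPKM in Farage and 59.1 to 67.5 FPKM in SUDHL6 (-1.69, limma adjusted p = 4.41e-06), while FGR, given above, and FYN were higher, FYN at 37.1, 37 and 37.7 FPKM in Farage and 1.84, 1.53 and 2.02 FPKM in SUDHL6 (difference 3.78 ± 0.08 (SE), limma adjusted p = 2.74e-07). MALT1, a protease that links the receptor to NF-kB, was higher, at 69.7, 69.6 and 71.4 FPKM in Farage and 11.4, 9.79 and 11.4 FPKM in SUDHL6 (difference 2.58 ± 0.07 (SE), limma adjusted p = 9.8e-07), and so was its partner BCL10 (0.7, limma adjusted p = 0.000248). PIK3CD, the lymphocyte PI3 kinase, measured 81.5 to 86.4 FPKM in Farage and 11.1 to 21.1 FPKM in SUDHL6 (2.36, limma adjusted p = 0.000118). BLNK, PLCG2, VAV1, PRKCB, BANK1 and RASGRP3 did not pass. The loci that hold the receptor's signalling chains were lower in Farage, that of CD79B with GH1 and GH2 at 52.3, 60.4 and 58.7 FPKM in Farage and 646, 644 and 653 FPKM in SUDHL6 (difference -3.48 ± 0.08 (SE), limma adjusted p = 3.28e-07) and that of CD79A with ARHGEF1 at 468 to 491 FPKM in Farage and 888 to 1027 FPKM in SUDHL6 (-1.0, limma adjusted p = 0.000122).

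Immunoglobulin constant region genes had no named locus, and of the 3 list members that did, IGLL5 was the 1 tested. IGLL1 and VPREB1, surrogate light chain genes, were listed at 0 in Farage and reached 2.26 and 1.88 FPKM in SUDHL6. Inhibitory receptors and phosphatases were 4 higher and 6 lower in Farage among 13 tested of 20 listed, beside 35.2% and 35.4% of all genes. PTPN6, which encodes SHP-1, a phosphatase that damps receptor signals, measured 191, 201 and 190.4 FPKM in Farage and 16.8, 12.3 and 25.6 FPKM in SUDHL6 (difference 3.4 ± 0.24 (SE), limma adjusted p = 4.14e-05). FCGR2B, the inhibitory IgG receptor, measured 8.18, 10.0 and 10.2 FPKM in Farage and 1.38, 1.9 and 1.41 FPKM in SUDHL6 (difference 2.03 ± 0.12 (SE), limma adjusted p = 1.74e-05). CEACAM1, an adhesion receptor, measured 0.375, 0.594 and 0.342 FPKM in Farage and 3.75, 6.04 and 11 FPKM in SUDHL6 (difference -2.37 ± 0.33 (SE), limma adjusted p = 0.000825). FCRL3 and FCRL5, Fc receptor-like genes, were lower in Farage (-1.63, limma adjusted p = 5.75e-05, and -1.15, limma adjusted p = 0.0015), as was the locus that FCRL1 and FCRL2 share, at 5.31 to 5.95 FPKM in Farage and 76.9 to 113 FPKM in SUDHL6 (-3.85, limma adjusted p = 2.74e-06).

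Germinal centre genes were 7 higher and 9 lower in Farage among 18 tested of 25 listed, beside the 35.2% and 35.4% of all genes given above. BCL6, the target of the study's inhibitor, at hg19 chr3:187388558-187463515, measured 54.5, 53.6 and 53.3 FPKM in Farage and 74, 99.8 and 72.8 FPKM in SUDHL6 (difference -0.59 ± 0.13 (SE), limma adjusted p = 0.0067). The libraries did not overlap, and the mean in SUDHL6 was 1.53 times that in Farage. MME, which encodes CD10, measured 2.71, 2.42 and 2.51 FPKM in Farage and 24.7, 25.8 and 16.6 FPKM in SUDHL6 (difference -2.7 ± 0.17 (SE), limma adjusted p = 2.3e-05). BACH2, a repressor that works with BCL6, measured 0.134, 0.115 and 0.106 FPKM in Farage and 18.7, 11.8 and 1.5 FPKM in SUDHL6, with replicate 3 low (difference -2.94 ± 0.74 (SE), limma adjusted p = 0.0117). Its difference was -3.83 without SUDHL6 replicate 3 and -2.34 without replicate 1. MYB, a proto-oncogenic transcription factor, was higher in Farage, at 44.6, 41.8 and 42 FPKM in Farage and 1.84, 2.54 and 3.6 FPKM in SUDHL6 (difference 3.61 ± 0.17 (SE), limma adjusted p = 7.46e-06), as was LMO2, a germinal centre cofactor, at 151, 167 and 156 FPKM in Farage and 18.3, 22.8 and 55.4 FPKM in SUDHL6 (difference 2.43 ± 0.39 (SE), limma adjusted p = 0.00166). SERPINA9 (2.11, limma adjusted p = 6.56e-05) and GCSAM (1.33, limma adjusted p = 8.06e-05), markers of germinal centre B cells, were also higher. CD38 (-1.61, limma adjusted p = 2.6e-06), RGS13 (-1.11, limma adjusted p = 5.66e-05) and EZH2 (-1.0, limma adjusted p = 0.00084) were lower.

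Plasma cell genes were 4 higher and 4 lower in Farage among 9 tested of 14 listed, beside 35.2% and 35.4% of all genes. XBP1, the factor of the secretory programme, measured 2.88 to 3.72 FPKM in Farage and 7.95 to 10.7 FPKM in SUDHL6 (-1.25, limma adjusted p = 0.000205), while CREB3L2, a relative of it, was higher in Farage, at 1.41 to 1.81 FPKM in Farage and 0.00418 to 0.0319 FPKM in SUDHL6 (1.37, limma adjusted p = 1.38e-05). PRDM1, the plasma cell repressor that BCL6 holds down, stayed under the filter, at 0.516 to 0.547 FPKM in Farage and listed at 0 in SUDHL6. Transcription factors of B cells were 10 higher and 6 lower in Farage among 20 tested of 24 listed, against the same shares. MEF2C, a factor activated by receptor signals, measured 37.8, 34.2 and 35.8 FPKM in Farage and 0.349, 0.336 and 0.346 FPKM in SUDHL6 (difference 4.78 ± 0.06 (SE), limma adjusted p = 4.48e-08). TCF4, an E protein, measured 19.7, 18.9 and 20.1 FPKM in Farage and 0.0346, 0.0364 and 0 FPKM in SUDHL6 (difference 4.33 ± 0.06 (SE), limma adjusted p = 4.99e-08). ZBTB32, a repressor of memory responses in mice, measured 31.5 to 32.8 FPKM in Farage and 0.163 to 0.328 FPKM in SUDHL6 (4.77, limma adjusted p = 8.03e-08). POU2F2, which encodes OCT-2, measured 36.1 to 38.7 FPKM in Farage and 30.5 to 39.6 FPKM in SUDHL6 (0.11, limma adjusted p = 0.369, not called). AFF3, an elongation-complex factor, measured 0.227, 0.126 and 0.169 FPKM in Farage and 54.7, 37.9 and 24.3 FPKM in SUDHL6 (difference -5.02 ± 0.27 (SE), limma adjusted p = 1.34e-05), and RUNX1 and RUNX3 ran in opposite directions, at 0.216 to 0.423 FPKM in Farage and 9.7 to 11.6 FPKM in SUDHL6 (-3.11, limma adjusted p = 1.12e-06) and 78.9 to 81.9 FPKM in Farage and 17.1 to 27.5 FPKM in SUDHL6 (1.9, limma adjusted p = 0.000122).

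Migration and adhesion receptors were 13 higher and 3 lower in Farage among 18 tested of 25 listed, against 35.2% and 35.4% of all genes. In the BCL6 inhibitor libraries 9 were higher and 3 lower in Farage, beside 30.4% and 32.1% of all genes there. CXCR4, the dark-zone chemokine receptor, measured 27.2, 27.6 and 27.6 FPKM in Farage and 109, 109 and 75.6 FPKM in SUDHL6 (difference -1.77 ± 0.15 (SE), limma adjusted p = 8.79e-05), while CXCR5, the follicle-homing receptor, was higher in Farage, at 72.5, 70.2 and 70.6 FPKM in Farage and 21, 28 and 45.5 FPKM in SUDHL6 (difference 1.22 ± 0.26 (SE), limma adjusted p = 0.00594), with CCR7 given above. RGS1, a regulator of G-protein signals, measured 290.2, 304 and 298 FPKM in Farage and 7.47, 3.45 and 5.23 FPKM in SUDHL6 (difference 5.59 ± 0.22 (SE), limma adjusted p = 3.6e-06). ITGB2, the common chain of leukocyte integrins, measured 52.6, 48.5 and 48.7 FPKM in Farage and 1.0, 1.29 and 7.52 FPKM in SUDHL6 (difference 3.91 ± 0.54 (SE), limma adjusted p = 0.000867, and 4.57 without SUDHL6 replicate 3). CD24, a surface sialoglycoprotein with near-identical copies that may share its reads, measured 0.152 to 0.299 FPKM in Farage and 73.5 to 159 FPKM in SUDHL6 (-6.67, limma adjusted p = 5.71e-06). CD44, a hyaluronan receptor, was higher in Farage (1.9, limma adjusted p = 2.31e-06).

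BCL2 family genes were 5 higher and 4 lower in Farage among 11 tested of 16 listed, beside 35.2% and 35.4% of all genes. BCL2 measured 48, 45.2 and 48.1 FPKM in Farage and 42.4, 38.7 and 25.8 FPKM in SUDHL6 and did not pass (limma adjusted p = 0.0774), but was higher in Farage without SUDHL6 replicate 3 (limma adjusted p = 0.0241). The pro-apoptotic genes BIK, PMAIP1 and BID were higher, at 79.1 to 92.5 FPKM in Farage and 4.07 to 6.39 FPKM in SUDHL6 (3.79, limma adjusted p = 3.32e-06), 83.9 to 90.5 FPKM in Farage and 12.1 to 13.2 FPKM in SUDHL6 (2.71, limma adjusted p = 3.67e-07) and 31.5 to 37.2 FPKM in Farage and 3.04 to 8.41 FPKM in SUDHL6 (2.7, limma adjusted p = 0.000528). BMF, which binds pro-survival members, was lower, at 21.8 to 22.6 FPKM in Farage and 79.6 to 105 FPKM in SUDHL6 (-1.98, limma adjusted p = 1.38e-05). Genes of the RB pathway, CDK inhibitors and their regulators were 8 higher and 4 lower in Farage among 14 tested of 17 listed. This list, read beside the same shares, holds drivers of the cell cycle, such as cyclin D1, as well as brakes. CDKN1A, which encodes p21, measured 49.7, 48.4 and 46.1 FPKM in Farage and 2.02, 2.61 and 4.91 FPKM in SUDHL6 (difference 3.61 ± 0.24 (SE), limma adjusted p = 3.18e-05). CCND1, cyclin D1, measured 8.35, 7.33 and 7.46 FPKM in Farage and 0.17, 0.192 and 0.0385 FPKM in SUDHL6 (difference 2.94 ± 0.08 (SE), limma adjusted p = 9.18e-07). MDM2, a ubiquitin ligase, was higher, at 21.4 to 24 FPKM in Farage and 8.83 to 9.04 FPKM in SUDHL6 (1.26, limma adjusted p = 9.63e-06). CDKN1B, which encodes p27, was higher, at 18.1 to 19.4 FPKM in Farage and 5.67 to 6.98 FPKM in SUDHL6 (1.46, limma adjusted p = 1.72e-05). RB1, the retinoblastoma gene, was lower, at 7.87 to 8.61 FPKM in Farage and 17.3 to 20.4 FPKM in SUDHL6 (-1.07, limma adjusted p = 5.19e-05).

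In DMSO, genes of the cell cycle were mostly lower in Farage or did not pass, beside 35.2% higher and 35.4% lower over all genes. S phase and replication genes were 0 higher and 9 lower in Farage among 17 tested of 20 listed, with a median of -0.56. RFC3, a clamp-loader subunit, measured 19.6 to 21.3 FPKM in Farage and 59.5 to 65.6 FPKM in SUDHL6 (-1.57, limma adjusted p = 4.71e-06). RRM1, of ribonucleotide reductase, measured 51.8 to 54.7 FPKM in Farage and 96.2 to 144 FPKM in SUDHL6 (-1.06, limma adjusted p = 0.0012). CDT1, a licensing factor, measured 9.32 to 11.3 FPKM in Farage and 15.8 to 35.1 FPKM in SUDHL6 (-1.22, limma adjusted p = 0.00761). UHRF1, a factor of methylation upkeep, measured 15.2 to 17.9 FPKM in Farage and 23.9 to 48.6 FPKM in SUDHL6 (-1.07, limma adjusted p = 0.0083). PCNA, the sliding clamp, measured 188, 210.3 and 192 FPKM in Farage and 114, 134 and 207 FPKM in SUDHL6 and did not pass (limma adjusted p = 0.132), but was higher in Farage without SUDHL6 replicate 3 (limma adjusted p = 0.00126). G2 and mitosis genes were 1 higher and 9 lower in Farage among 14 tested of 18 listed, with a median of -0.56. The higher one was CENPE, a kinetochore motor (0.52, limma adjusted p = 0.0209), a call lost without Farage replicate 1 or 3 or SUDHL6 replicate 1 or 2 (highest adjusted p = 0.0736). MKI67, the proliferation marker, measured 43.8, 34.5 and 40.0 FPKM in Farage and 50.8, 58.5 and 71.7 FPKM in SUDHL6 (difference -0.59 ± 0.15 (SE), limma adjusted p = 0.0114). KIF20A, a mitotic kinesin, measured 9.05 to 9.82 FPKM in Farage and 19.2 to 27.2 FPKM in SUDHL6 (-1.12, limma adjusted p = 0.000532). BIRC5, survivin, measured 15 to 16.5 FPKM in Farage and 31.1 to 41.1 FPKM in SUDHL6 (-1.07, limma adjusted p = 0.000278). CDC20, which activates the anaphase-promoting complex, measured 38.5 to 41.4 FPKM in Farage and 65.5 to 86.5 FPKM in SUDHL6 (-0.91, limma adjusted p = 0.000434). TPX2, a spindle factor, measured 32 to 33.5 FPKM in Farage and 47.7 to 68.4 FPKM in SUDHL6 (-0.79, limma adjusted p = 0.00198). SUDHL6 replicate 3 exceeded both its mates for 16 of 17 S phase genes and 14 of 14 mitotic genes, against 52.7% of all genes tested. Without it, 4 S phase genes were higher and 9 lower, and 2 mitotic genes were higher and 10 lower in Farage. In the BCL6 inhibitor libraries, 0 S phase genes were higher and 3 lower in Farage (median -0.15). Of the mitotic genes, 0 were higher and 1 lower there (median -0.65), beside 30.4% and 32.1% of all genes.

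MYC network genes were 0 higher and 5 lower in Farage among 10 tested of 15 listed, against 35.2% and 35.4% of all genes. In the BCL6 inhibitor libraries 3 were higher and 4 lower in Farage, beside 30.4% and 32.1% of all genes there. The median difference was -0.28 in DMSO and 0.26 under the inhibitor. MYC measured 67.3, 71.8 and 64.5 FPKM in Farage and 124, 129.9 and 131 FPKM in SUDHL6 (difference -0.91 ± 0.07 (SE), limma adjusted p = 4.75e-05), with no overlap. MLX, a partner in the network, SRM, spermidine synthase, and NCL, nucleolin, were lower by 0.6, 0.52 and 0.3 (limma adjusted p = 0.000185, 0.000751 and 0.0405), and the call of NCL was lost without any 1 Farage library or SUDHL6 replicate 1 (highest adjusted p = 0.123).

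Chromatin regulators were 6 higher and 4 lower in Farage among 12 tested of 18 listed, beside 35.2% and 35.4% of all genes. EZH2, the histone H3 lysine 27 methyltransferase, measured 21.7 to 22.7 FPKM in Farage and 38.5 to 56.3 FPKM in SUDHL6 (-1.0, limma adjusted p = 0.00084). KDM6A, which removes that mark, measured 9.47 to 9.98 FPKM in Farage and 4.92 to 5.3 FPKM in SUDHL6 (0.82, limma adjusted p = 4.01e-05). TET2, a methylcytosine oxidase, measured 4.77 to 5.76 FPKM in Farage and 1.1 to 1.71 FPKM in SUDHL6 (1.45, limma adjusted p = 7.97e-05). Toll-like receptor pathway genes were 5 higher and 5 lower in Farage among 12 tested of 19 listed, against the same shares. MYD88, the adaptor, measured 30.1 to 30.6 FPKM in Farage and 28.4 to 32.9 FPKM in SUDHL6 and did not pass (limma adjusted p = 0.993). IRAK2, a signalling kinase, measured 10.4 to 11.3 FPKM in Farage and 0.252 to 0.32 FPKM in SUDHL6 (3.21, limma adjusted p = 1.84e-07). IRF5, a factor of this pathway, measured 25.6 to 27.8 FPKM in Farage and 2.37 to 3.43 FPKM in SUDHL6 (2.86, limma adjusted p = 3.43e-06). TLR2, a receptor of bacterial lipoproteins, measured 2.45 to 2.87 FPKM in Farage and 0 to 0.020 FPKM in SUDHL6 (1.84, limma adjusted p = 2.6e-06). TNIP1, a partner of A20, measured 178 to 186 FPKM in Farage and 46.9 to 73.5 FPKM in SUDHL6 (1.68, limma adjusted p = 0.000194). IRAK1, the kinase downstream of MYD88, was lower (-1.16, limma adjusted p = 1.14e-05).

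The same line difference was measured in the libraries treated with the BCL6 inhibitor, which share no library with the DMSO comparison. There 3367 genes (30.4%) were higher and 3549 (32.1%) lower in Farage, 6916 (62.5%) in all. Of 7802 genes called in DMSO, 5513 were called in the same direction under the inhibitor, 198 in the opposite direction, and 2091 were not called. Of 2924 called by at least 1 in DMSO, 2644 were called in the same direction and 12 in the opposite one. HLA-DRA differed by -8.22, IL32 by 7.79 and IGLL5 by -8.13, against -8.38, 8.18 and -8.93 in DMSO. SLAMF7 and CCR7 differed by 3.42 and 3.98, against 6.68 and 6.46 in DMSO, with SUDHL6 means of 75.9 and 28.2 FPKM under the inhibitor. The change of the line difference between treatments was not tested.

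**Figure D5:**
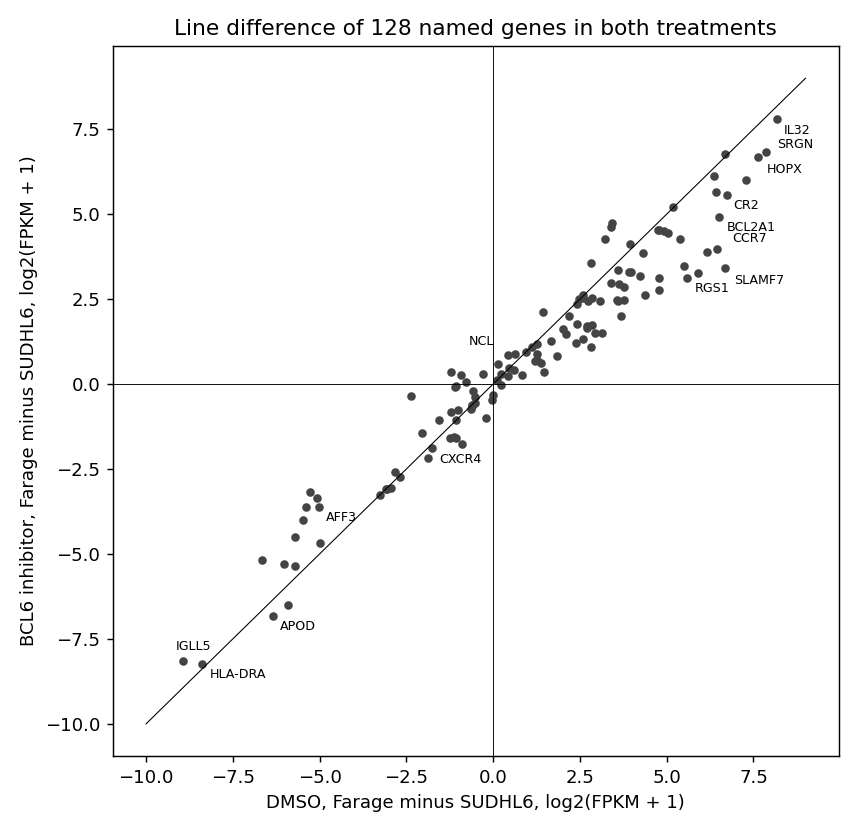
Farage minus SUDHL6 on the log2(FPKM + 1) scale for the 128 genes chosen by the naming rule, in the DMSO libraries (horizontal) and the BCL6 inhibitor libraries (vertical), with the line of equal difference. The sign is the same in both treatments for 123 genes and opposite for 5; HLA-DRA and IGLL5 lie near the line and SLAMF7 and RGS1 under it.

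SUDHL4, the third line of the study, was set beside both. On the log2(FPKM + 1) scale the SUDHL4 DMSO mean was nearer to Farage than to SUDHL6 for 5581 of 11061 genes (50.5%). It was nearer to SUDHL6 for 19 of 23 NF-kB targets, 13 of 17 activated B-cell-like genes and 17 of 20 B-cell transcription factors. It was nearer to Farage for 12 of 14 mitotic genes and 10 of 17 S phase genes. The same held for 9 of 13 inhibitory receptors and phosphatases and 7 of 11 BCL2 family genes. SUDHL4 did not enter the filter, so a gene that passed through Farage alone counts toward SUDHL6 wherever SUDHL4 does not express it. BCL2A1 in SUDHL4 stood at 19.1, 15.4 and 15.7 FPKM, between the lines. PTPN6 stood at a mean of 139 FPKM, near Farage, and MEF2C at 54.6 FPKM, above it.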

How the data were processed

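The authors deposited 1 table of FPKM values per gene locus for 18 libraries, and per the submitters' processing notes the tools were CASAVA 1.8, TopHat2 and Cufflinks with the hg19 build; no source at hand names their order, the annotation or the strandedness. The table names 26004 of 34410 loci. Loci that join several genes (1336 of those tested) were kept as 1 gene with all names, and a name at several loci was taken from the locus with the highest mean. The table holds no read counts, so the depth per library is unknown and no counting interval can be given; the 3 libraries per line limit the precision. In place of counts, the deposited FPKM sums per library are given with the results.

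Loci that reached 1 FPKM in 3 or more of the 6 DMSO libraries were kept, and log2(FPKM + 1) was fitted by line alone with limma 3.58.1 in R 4.3.3, with an intensity trend and Benjamini-Hochberg adjustment over 11061 genes; called means an adjusted p under 0.05. The inhibitor libraries were fitted apart, over the same genes. The fit was tested on simulated data. Alternatives were another pseudocount (0.1), scalings, filters, library weights, a replicate block, all 18 libraries and leaving out each library. Same-numbered libraries of the lines deviated together at r = 0.012, 0.035 and 0.070, so the numbers were not taken to pair them.

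The gene lists and the comparison were chosen with earlier results of these data known. The text names the 12 largest called differences in each direction among genes with a mean of at least 5 FPKM in the higher line and no overlap (small and other noncoding RNAs, merged loci, names at several loci, pseudogenes, immunoglobulin segments and loci on chromosome Y not eligible), from each list its first member and up to 4 called members with the largest differences, and markers of other cell types that reach 1 FPKM. All other genes named were chosen after their values were seen. Some genes that the rule selects are not reported here. Promoters are RefSeq windows (GRCh38.p14), and no coordinate was converted between builds.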

Additional observations from a re-analysis of the deposited data

Results flagged for a closer look

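NCL, which encodes the nucleolar protein nucleolin, pointed in opposite directions in the 2 treatments. In DMSO every Farage library lay below every SUDHL6 library (-0.30), and under the BCL6 inhibitor every Farage library lay above every SUDHL6 library (0.29). The difference between the treatments was not tested.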

How the results depend on the processing

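Counts of called genes stayed within 1.5 times under all 16 alternatives. With a pseudocount of 0.1 they were 3875 higher and 3903 lower in Farage, with median-ratio scaling 4158 and 3854, with no filter 4902 and 4508, and with library weights 4375 and 4115. Scaling to named loci without small RNA moved the median of all genes from -0.01 to 0.08 and the counts to 4368 and 3470. Leaving out each library gave 3451 to 4400 higher and 3398 to 4064 lower. With the replicate block the counts were 3674 and 3662, and because the same-numbered libraries were not paired this is no paired result.

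Of 121 genes chosen by the naming rule that passed, 5 lost the call in some alternative and 0 reversed: KRT8, MKI67, NCL, PAX5 and STAT6. NCL lost it under 7 settings, among them leaving out either any Farage library or SUDHL6 replicate 1, KRT8 without Farage replicate 1, and MKI67 with all 18 libraries in the fit. Among called genes named outside that rule, BATF, LTB, HLA-DMB, CENPE and the IFI30 locus lost it without some single libraries. RELA lost it when scaled to named loci without small RNA (limma adjusted p = 0.101). Reversals occurred for 4 genes that were not called. MYD88 turned to 0.032 with median-ratio scaling, 0.093 when scaled to named loci without small RNA and 0.048 with library weights, and ran from -0.045 to 0.057 over the left-out libraries. TNFRSF13C, read from a shared locus, turned to 0.004 with median-ratio scaling and 0.066 with the scaling to named loci, and ran from -0.176 to 0.080 over the left-out libraries. POU2AF1 ran from -0.007 to 0.308 over the left-out libraries, and POU2F2 turned to -0.004 with library weights. The cause was not tested. With no read counts, differences among genes near 1 FPKM rest on an unknown number of fragments.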

Other observations

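Among DNA repair genes, a list chosen after the values were seen, MGMT, which removes alkyl groups from guanine, measured 62.4, 63.9 and 58.5 FPKM in Farage and 0.0287, 0 and 0 FPKM in SUDHL6 (difference 5.95 ± 0.06 (SE), limma adjusted p = 3.89e-08), and in SUDHL4 it stood at a mean of 71.9 FPKM. MSH6, a mismatch repair subunit, measured 4.71, 4.3 and 4.53 FPKM in Farage and 57.8, 62.9 and 76.8 FPKM in SUDHL6 (difference -3.59 ± 0.11 (SE), limma adjusted p = 1.28e-06). PRKDC, the kinase of end joining, was lower in Farage, at 36.2 to 44 FPKM in Farage and 83.2 to 104 FPKM in SUDHL6 (-1.19, limma adjusted p = 0.000146). In all, 1 of 11 tested members was higher and 4 were lower in Farage, beside 35.2% and 35.4% of all genes.

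Genes best known from T cells, likewise listed after their values were seen, were 8 higher and 1 lower in Farage among 9 tested of 17 listed, with 7 under the filter; the shares over all genes were 35.2% and 35.4%. Members that passed the filter through Farage, where they are high, had to differ, so the count supports nothing. Beside IL32, TCF7 and CD226, the checkpoint receptor TIGIT measured 56.9, 55.8 and 56.1 FPKM in Farage and 0.266, 0.252 and 0.365 FPKM in SUDHL6 (difference 5.47 ± 0.06 (SE), limma adjusted p = 3.89e-08). SKAP1, an adaptor of T-cell adhesion, was listed at 0 in the 3 SUDHL6 libraries and stood at 43.3, 48.2 and 46.3 FPKM in Farage (limma adjusted p = 3.89e-08). LEF1, a relative of TCF7, ran the other way, at 0.541 to 0.711 FPKM in Farage and 11.1 to 12.5 FPKM in SUDHL6 (-2.98, limma adjusted p = 4.92e-07). GATA3, BCL11B, ZAP70 and ICOS stayed under 1 FPKM in all 6 libraries, and CD3D and CD3E were listed at 0.

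By chromosome (hg19, small RNA loci and sex chromosomes left out), the median difference ran from -0.44 over 585 genes on chromosome 6 to 0.54 over 386 genes on chromosome 4.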
